A study of Oryza sativa with 9 samples.

Results

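The rows examined here are the identifier neighbours of Os09g0242600 on chromosome 9 of rice, that is, every row of the deposited expression table with an identifier between Os09g0230000 and Os09g0260000. There were 94 such rows of 37863 in the table, namely Os09g0242600 itself, 15 rows with lower identifiers and 78 with higher ones. The window was chosen by 1 measured value, the high level of Os09g0242600 in the overexpression line, while the levels of its neighbours were not used. The question put to the neighbours was whether any of them changed in either transgenic line, as a local effect of the edit or reads shared with Os09g0242600 could give. The RNA came from young panicles, taken before anthesis, of 3 genotypes of the *japonica* variety Zhonghua 11, with 3 libraries each. ZH11-OE1 overexpressed *GSE9* from a ubiquitin promoter, ZH11-KO1 carried a CRISPR/Cas9 edit of *GSE9*, with Cas9 driven by a ubiquitin promoter and guides by a U3b promoter, and ZH11 was the untransformed wild type. The study text calls the lines ZH11-OE-1 and ZH11-Cas9-1. Each transgenic genotype was 1 line obtained with *Agrobacterium*, so line and genotype cannot be told apart.

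*GSE9* is a gene for grain shape on chromosome 9 that the study describes as born *de novo* from a previously noncoding sequence, and its product has no annotated domain. In rice identifiers of this form, the digits before the g give the chromosome and the number after it rises along the chromosome, so rows next to each other in number are neighbours in the genome, at distances the number does not give. A transgene delivered by *Agrobacterium* usually inserts away from the native gene, so neighbours of the native gene are not thereby neighbours of the transgene. A small edit in a coding sequence can truncate the protein and still leave the transcript in place, so the RNA level does not check the edit. The sequences below show what the constructs carried, a guide from the study's oligos for the *GSE9* Cas9 construct and the gene parts of both primers that amplified the overexpressed coding sequence. The methods name more than 1 guide, and nothing read here ties this guide to ZH11-KO1. Capitals mark the start codon in the forward primer and the reverse complement of the stop codon in the reverse primer. All are written 5′ to 3′.
Guide of a *GSE9* Cas9 construct: atcccctgtccgtcgggcat
Forward primer of the overexpression construct: ATGccccaacctcgtccg
Reverse primer of the overexpression construct: TCAtaaaacacaaacaaataaaacacttg
The guide is 20 bases long, and the same 20 bases occur in a primer the study used to amplify the 3′ end of the *GSE9* transcript. No genome was used here, so these sequences were not placed on Os09g0242600, and whether that row is *GSE9* was not tested. The sources used here pair none of the neighbours with a gene name or a function, so all are given by identifier and without a role.

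Values are FPKM, reads corrected for gene length and sequencing depth, and tests ran on log2(FPKM + 1). The smallest steps of the FPKM values gave whole reads, between 14154024 and 16321826 per library over the 9 libraries. All 12 rows of a list of floral and spikelet genes were expressed, with summed levels of 1526 to 1793 FPKM in ZH11-OE1, 1560 to 1678 FPKM in ZH11-KO1 and 1606 to 1784 FPKM in ZH11, and 1 of them passed the test in a line, lower in ZH11-KO1. A list of 3 green tissue genes, 0 of which passed, summed to 137.3 to 179.5 FPKM in ZH11-OE1, 110.8 to 166.7 FPKM in ZH11-KO1 and 140.3 to 221.6 FPKM in ZH11. A list of 5 tapetum and pollen wall genes moved with genotype. Of its 5 rows, 3 passed the test as higher in ZH11-OE1 than in ZH11, beside 3.76% of all genes tested. In ZH11-KO1 against ZH11, 4 passed as higher, beside 5.0%. No row of this list was at 0 in all libraries. Their summed level was 213 to 240.5 FPKM in ZH11-OE1, 196.5 to 255.9 FPKM in ZH11-KO1 and 84.1 to 164.7 FPKM in ZH11. The part of this shift in the differences given below was not tested. In bulk panicle RNA, fewer cells of a type and less RNA per cell cannot be told apart.

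Os09g0242600 had 2388, 1821 and 1711 FPKM in the ZH11-OE1 libraries. Its levels were 21.0, 23.1 and 22.9 FPKM in ZH11-KO1, against 21.6, 24.2 and 18.4 FPKM in ZH11. The ZH11-OE1 libraries stood far above the other 6, and the ratio of the ZH11-OE1 mean to the ZH11 mean was 92.2. Because this value chose the window, it is a description with no test. Os09g0242600 ranked 11 by mean FPKM among all rows in ZH11-OE1, and 16 among the 94 rows of the window in both ZH11-KO1 and ZH11. It took up between 0.158% and 0.22% of the reads of a ZH11-OE1 library. ZH11-KO1 and ZH11 overlapped, and their log2 fold change was 0.07 (95% interval -0.23 to 0.36, adjusted p = 0.799, limma), so no loss of the transcript was detected in the edited line.

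The window was sparsely expressed around this row. Of the 93 neighbours, 43 averaged 1 FPKM or more across all 9 libraries and were tested, 7 with lower and 36 with higher identifiers than Os09g0242600. A further 34 had reads but a lower mean, and 16 were at 0 in every library. The tested share was 46.2% of the neighbours, beside 57.5% of all rows, and the share at 0 in every library was 17.2%, beside 14.9% of all rows. The tested neighbours ran from 1.07 to 200 FPKM in their mean, with a median of 16.7 FPKM (10.8 FPKM over all 21780 genes tested). There were 25 with at least 10 FPKM and 4 with at least 100 FPKM, the 4 being Os09g0248100, Os09g0249700, Os09g0253000 and Os09g0258600. Across replicates, the median coefficient of variation of the tested neighbours was 8.92% in ZH11-OE1 (0.515% to 40.0%), 9.83% in ZH11-KO1 (2.15% to 49.9%) and 9.59% in ZH11 (2.35% to 66.1%). At the edges of the window, Os09g0237600 was the first row inside, with 77.8 to 85.3 FPKM in ZH11-OE1, 71.5 to 80.9 FPKM in ZH11-KO1 and 71.8 to 93.1 FPKM in ZH11. The next row below it, Os09g0135850, was at 0 in all libraries. The last row inside, Os09g0260000, stayed between 0.436 and 1.21 FPKM, and Os09g0260200 just outside it between 0.24 and 0.807 FPKM.

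The rows next to Os09g0242600 were followed in reads, since reads shared with an abundant transcript could appear there as counts. The sources used here do not say whether the counting kept or dropped shared reads. Low counts in these rows are therefore no test of sharing. Of the 5 rows on each side, Os09g0241700, 3 rows below, was the one with a high level. It had 28.1, 30.9 and 34.0 FPKM in ZH11-OE1, 26.3, 26.1 and 27.4 FPKM in ZH11-KO1, and 24.4, 30.8 and 30.2 FPKM in ZH11. Its log2 fold change was 0.12 in ZH11-OE1 against ZH11 (95% interval -0.11 to 0.36, adjusted p = 0.46) and -0.09 in ZH11-KO1 against ZH11 (-0.32 to 0.15, adjusted p = 0.656, limma), and the libraries of each line overlapped those of ZH11.

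Os09g0242800, the row directly above in number, had 83, 82 and 97 reads in ZH11-OE1. It had 230, 209 and 140 reads in ZH11-KO1, and 117, 154 and 136 reads in ZH11. The levels were 5.87, 5.32 and 6.23 FPKM in ZH11-OE1, 15.1, 14.9 and 10.4 FPKM in ZH11-KO1 and 8.07, 10.7 and 9.10 FPKM in ZH11. This row was thus lowest in the overexpression line, with no ZH11-OE1 library reaching the lowest of any other genotype. Os09g0242300, as near in number on the other side, was not lowest there, as given below. For each 1000 reads of Os09g0242600, Os09g0242800 had 2.53 to 3.74 reads in ZH11-OE1, 465 to 740 reads in ZH11-KO1 and 384 to 507 reads in ZH11. This ratio falls with the rise of Os09g0242600 that chose the window, so it is a description and no test of the neighbour.

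Os09g0242300, the row directly below in number, was under the expression minimum. Its reads were 17, 20 and 30 in ZH11-OE1, 12, 19 and 16 in ZH11-KO1, and 7, 8 and 15 in ZH11. The ZH11-OE1 libraries lay above the ZH11 libraries without overlap, and with no expression minimum the log2 fold change was 0.40 (adjusted p = 0.0828, limma). Each 1000 reads of Os09g0242600 went with 0.517 to 1.16 reads of Os09g0242300 in ZH11-OE1, 38.6 to 60.1 in ZH11-KO1 and 23.0 to 56.0 in ZH11. This too follows the level of Os09g0242600.

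The other 7 rows of these 10 had few reads. Os09g0241200 had 1, 1 and 3 reads in ZH11-OE1, 8, 8 and 6 reads in ZH11-KO1, and 3, 2 and 3 reads in ZH11. Os09g0241550 had 3, 0 and 4 reads in ZH11-OE1, 6, 3 and 0 in ZH11-KO1, and 1, 3 and 2 in ZH11. Os09g0242000 had 1, 0 and 0 reads in ZH11-OE1, 0, 0 and 1 in ZH11-KO1, and 3, 0 and 2 in ZH11. Of these, Os09g0241200 separated ZH11-KO1 from ZH11, by 3 to 6 reads. On the other side, Os09g0243000 had 4, 4 and 7 reads in ZH11-OE1, 6, 0 and 3 in ZH11-KO1, and 0, 1 and 0 in ZH11. Os09g0243200 had 6, 7 and 4 reads in ZH11-OE1, 22, 5 and 4 in ZH11-KO1, and 12, 17 and 11 in ZH11. Os09g0244200 had 1, 7 and 7 reads in ZH11-OE1, 3, 2 and 1 in ZH11-KO1, and 8, 10 and 6 in ZH11. Os09g0243000 was the only one of the 7 whose ZH11-OE1 libraries all lay above its ZH11 libraries, and Os09g0243200 was below ZH11 in every ZH11-OE1 library. Os09g0244200 was below ZH11 in every ZH11-KO1 library. Among all genes tested, 12.6% lay above ZH11 without overlap in ZH11-OE1 and 21.2% below it. In ZH11-KO1 these shares were 14.2% and 16.0%. The 7 rows and Os09g0242300 were under the expression minimum, and no such share is given here for rows that low. Os09g0243450 had 2 reads in 1 ZH11-OE1 library and 0 in the other 8. Together the 9 rows without Os09g0241700 summed to 116, 121 and 154 reads in ZH11-OE1, 287, 246 and 171 reads in ZH11-KO1, and 151, 195 and 175 reads in ZH11. Beside them, Os09g0242600 itself had 32869, 27314 and 25902 reads in ZH11-OE1, 311, 316 and 301 in ZH11-KO1, and 305, 337 and 268 in ZH11.

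**Figure D1:**
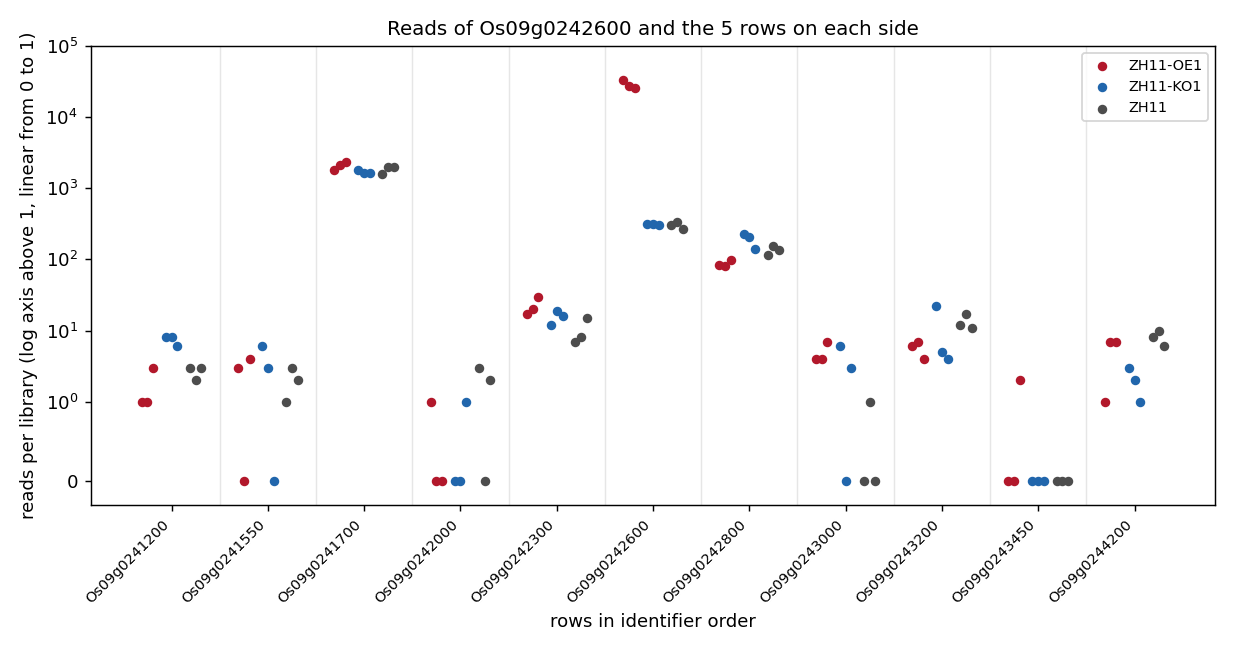
Reads per library (y axis, log above 1 and linear from 0 to 1) of Os09g0242600 and the 5 rows on each side of it in identifier order (x axis), for ZH11-OE1, ZH11-KO1 and ZH11 from left to right within each row; points are libraries. Os09g0242600 holds 25902 to 32869 reads in ZH11-OE1, while Os09g0242800 beside it holds 82 to 97 there and 117 to 154 in ZH11.

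In ZH11-OE1 against ZH11, the neighbours that passed were all lower. At an adjusted p under 0.05 (limma, over all 21780 genes tested), 0 of the 43 tested neighbours were higher in ZH11-OE1, beside 3.76% of all genes tested, and 5 of 43 were lower (11.6%), beside 10%. The 5 lower rows were Os09g0242800, Os09g0248100, Os09g0248900, Os09g0249900 and Os09g0256100. At an unadjusted p under 0.05, 8 neighbours were higher (18.6%, beside 10.6% of all genes tested) and 8 lower (18.6%, beside 19.9%). With limma-voom on the reads recovered from the FPKM, 2 were higher, Os09g0247700 and Os09g0252800 (4.65%, beside 6.75%), and 5 lower (11.6%, beside 8.43%), with Os09g0244900 in place of Os09g0242800. Counted by libraries that did not overlap, 7 neighbours were higher in ZH11-OE1 (16.3%, beside 12.6% of all genes tested) and 9 lower (20.9%, beside 21.2%). The median log2 fold change was -0.01 over the tested neighbours and -0.04 over all genes tested, and the median size of the change, whatever its sign, was 0.18 and 0.19. For Os09g0242800, the log2 difference came to -0.59 ± 0.15 (SE, adjusted p = 0.0298). It did not pass without ZH11-OE1 replicate 1 (adjusted p = 0.0679), 2 (0.101) or 3 (0.0558), without ZH11 replicate 2 (0.0835), with limma-voom (0.0507), with no expression minimum (0.0548), or with a replicate block in a fit of ZH11-OE1 and ZH11 alone (0.0698). The count of neighbours passing in either direction was 3 without ZH11-OE1 replicate 1 or ZH11 replicate 2, and 2 without ZH11-OE1 replicate 2 or 3. The share of all genes passing moved too, and was 8.78%, 11.5%, 4.99% and 8.01% in these 4 fits, beside 13.8% with all libraries. A single neighbour passed as higher, Os09g0252700, without ZH11-KO1 replicate 1 or 3 and in a fit of ZH11-OE1 and ZH11 alone. Os09g0259200 was the single one to do so without ZH11 replicate 2.

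Os09g0256100 had the largest difference among the tested neighbours in this comparison. Its levels were 4.58, 3.07 and 2.36 FPKM in ZH11-OE1, 14.9, 9.83 and 8.17 FPKM in ZH11-KO1, and 17.8, 7.20 and 13.5 FPKM in ZH11. The ZH11-OE1 libraries were below all 6 others, although ZH11 itself spread widely. The log2 fold change in ZH11-OE1 against ZH11 was -1.62 ± 0.31 (SE, adjusted p = 0.00959, limma), and in ZH11-KO1 against ZH11 it was -0.17 (adjusted p = 0.779). This row lies 63 rows away from Os09g0242600. Os09g0248100, 21 rows away and one of the most abundant neighbours, had 149, 140 and 125 FPKM in ZH11-OE1, 189, 155 and 149.9 FPKM in ZH11-KO1, and 261, 182 and 238 FPKM in ZH11. Its log2 fold change was -0.70 ± 0.14 in ZH11-OE1 against ZH11 (adjusted p = 0.0122) and -0.46 in ZH11-KO1 against ZH11 (adjusted p = 0.0747). The ZH11-KO1 comparison passed with replicate number as a replicate block (adjusted p = 0.0431) and without ZH11 replicate 2 (0.0171). It also passed with quantile normalization (0.0354) and with the block in a fit of ZH11-KO1 and ZH11 alone (0.0289). In the overexpression line, both Os09g0248100 and Os09g0256100 passed under all 19 alternative scalings, expression minimums, fits and libraries left out, with adjusted p of at most 0.0466 and 0.0404.

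Os09g0249900, 31 rows away, had 3.92, 3.15 and 3.71 FPKM in ZH11-OE1, 5.70, 5.91 and 5.22 FPKM in ZH11-KO1, and 7.49, 7.09 and 4.56 FPKM in ZH11. It was lowest in ZH11-OE1, where the log2 fold change against ZH11 was -0.66 ± 0.16 (SE, adjusted p = 0.0247, limma), and in ZH11-KO1 against ZH11 it was -0.14 (adjusted p = 0.648). Its reads numbered 42 to 50 in ZH11-OE1 and 59 to 94 in ZH11. The ZH11-OE1 result did not pass without ZH11-OE1 replicate 2 (adjusted p = 0.0906) or 3 (0.0567), or without ZH11 replicate 1 (0.0948) or 2 (0.0683), nor with no expression minimum (0.0507) or with the block in a fit of both groups alone (0.0844).

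**Figure D2:**
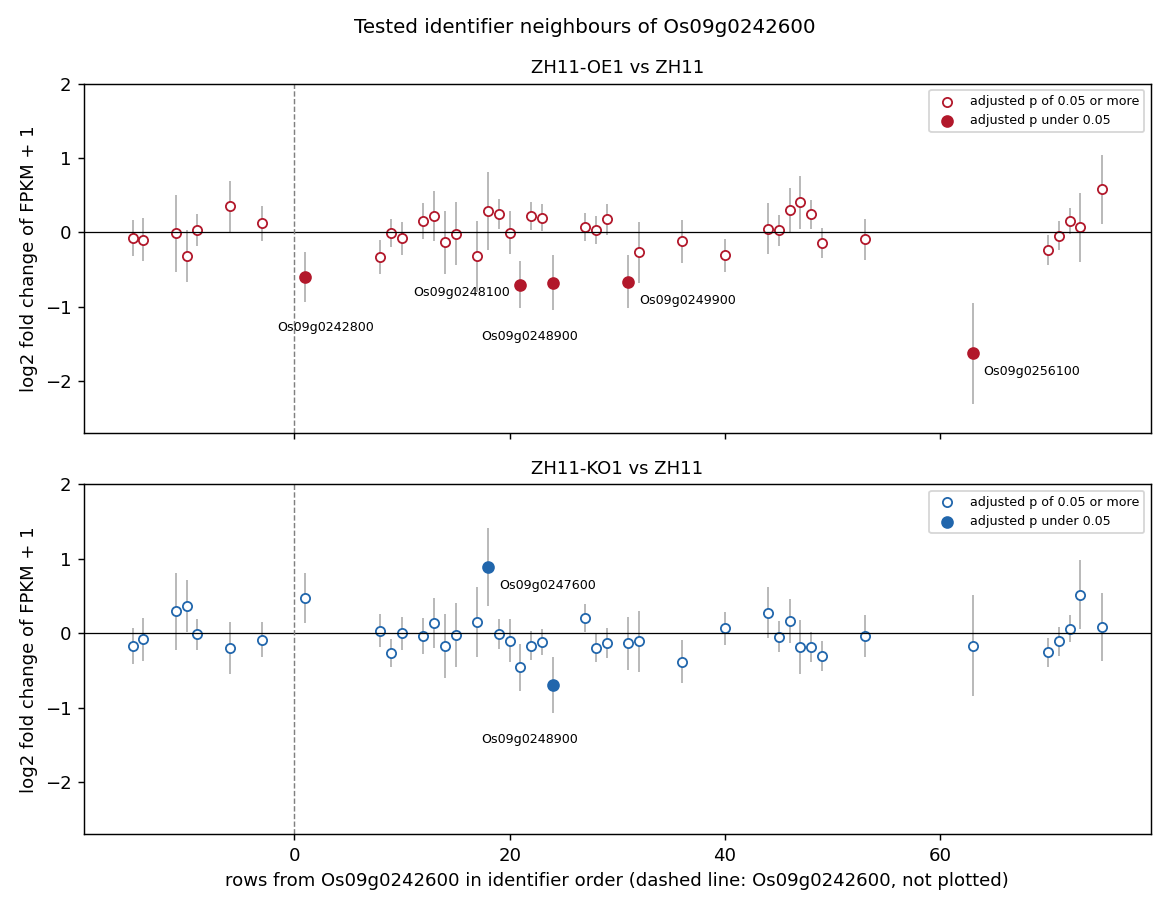
Log2 fold change of FPKM + 1 (y axis) of the 43 tested neighbours against their distance in rows from Os09g0242600 (x axis, dashed line at Os09g0242600, which is not plotted), for ZH11-OE1 against ZH11 above and ZH11-KO1 against ZH11 below; bars are 95% intervals of limma and filled points have an adjusted p under 0.05. The 5 filled points of the upper panel are all below 0 and spread from the row next to Os09g0242600 to 63 rows away.

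In ZH11-KO1 against ZH11, 1 tested neighbour was higher (2.33% of 43, beside 5.0% of all genes tested) and 1 was lower (2.33%, beside 3.59%), at an adjusted p under 0.05. Os09g0247600, 18 rows away, was the higher one. It had 11.9, 14.3 and 17.4 FPKM in ZH11-OE1, 24.2, 26.5 and 17.1 FPKM in ZH11-KO1, and 11.6, 16.5 and 7.998 FPKM in ZH11. The lowest ZH11-KO1 library and the highest ZH11 library were close, and the log2 fold change was 0.88 ± 0.24 (SE, adjusted p = 0.0451, limma). The call did not hold without any 1 ZH11-OE1 library (adjusted p = 0.0526 to 0.0659), without ZH11-KO1 replicate 1 (0.108) or 2 (0.168), or without ZH11 replicate 1 (0.0872) or 3 (0.141), nor with no expression minimum (0.0833), no trend (0.0599) or a fit of ZH11-KO1 and ZH11 alone (0.0813), which makes 10 of 19 alternatives. With a replicate block the call held, in the fit of all libraries (adjusted p = 0.0432, limma). In the fit of ZH11-KO1 and ZH11 alone, the block brought it to 0.00582. Libraries did not overlap for 3 neighbours higher in ZH11-KO1 (6.98%, beside 14.2% of all genes tested) and 7 lower (16.3%, beside 16.0%). The median log2 fold change was -0.08 over the tested neighbours and -0.02 over all genes tested, and its median size was 0.16 and 0.17. The count of neighbours passing was 2, and it was 0 without ZH11-KO1 replicate 2 or ZH11 replicate 3, 1 without any 1 ZH11-OE1 library or ZH11 replicate 1, and 4 without ZH11-KO1 replicate 3. Of all genes, 8.6% passed with all libraries, 1.84% without ZH11-KO1 replicate 2, 2.58% without ZH11 replicate 3, 6.68% to 7.36% without 1 ZH11-OE1 library, 5.85% without ZH11 replicate 1 and 4.65% without ZH11-KO1 replicate 3. Os09g0242800, the row next to Os09g0242600, had a log2 fold change of 0.48 in ZH11-KO1 against ZH11 (95% interval 0.14 to 0.81, adjusted p = 0.0792), and it passed only without ZH11-KO1 replicate 3 (adjusted p = 0.0316), the library of ZH11-KO1 with its lowest level.

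Os09g0248900, 24 rows away, was the lower one, and the only tested neighbour to pass in the same direction in both lines (0 were higher in both, beside 1.08% of all genes tested, and 1 of 43 was lower in both, beside 1.61%). It had 1.99, 2.62 and 1.98 FPKM in ZH11-OE1, 2.46, 1.87 and 2.08 FPKM in ZH11-KO1, and 3.00, 4.43 and 4.999 FPKM in ZH11. All 6 transgenic libraries were below all 3 of ZH11. The log2 fold change against ZH11 was -0.67 ± 0.17 in ZH11-OE1 (SE, adjusted p = 0.028) and -0.70 ± 0.17 in ZH11-KO1 (adjusted p = 0.033, limma). The comparisons share the ZH11 libraries. In ZH11-OE1 the call was lost without any 1 ZH11-OE1 library or without ZH11 replicate 2 or 3 (adjusted p = 0.0509 to 0.0795), and in ZH11-KO1 without ZH11-KO1 replicate 2 (0.128) or 3 (0.0778) or ZH11 replicate 2 (0.0706) or 3 (0.12). It was also lost with no expression minimum in both lines (0.0559 in ZH11-OE1 and 0.0633 in ZH11-KO1), with quantile normalization in ZH11-OE1 (0.0541) and in a fit of ZH11-KO1 and ZH11 alone (0.0622). With replicate number as a replicate block in the fit of all libraries, 2 neighbours were lower in both lines, Os09g0248900 and Os09g0248100. With the block in fits of the 2 groups compared, Os09g0248900 passed in neither line (adjusted p = 0.0732 in ZH11-OE1 and 0.0513 in ZH11-KO1), and Os09g0248100 was the 1 neighbour lower in both. Os09g0248100 was likewise the 1 lower in both with quantile normalization and without ZH11 replicate 2.

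**Figure D3:**
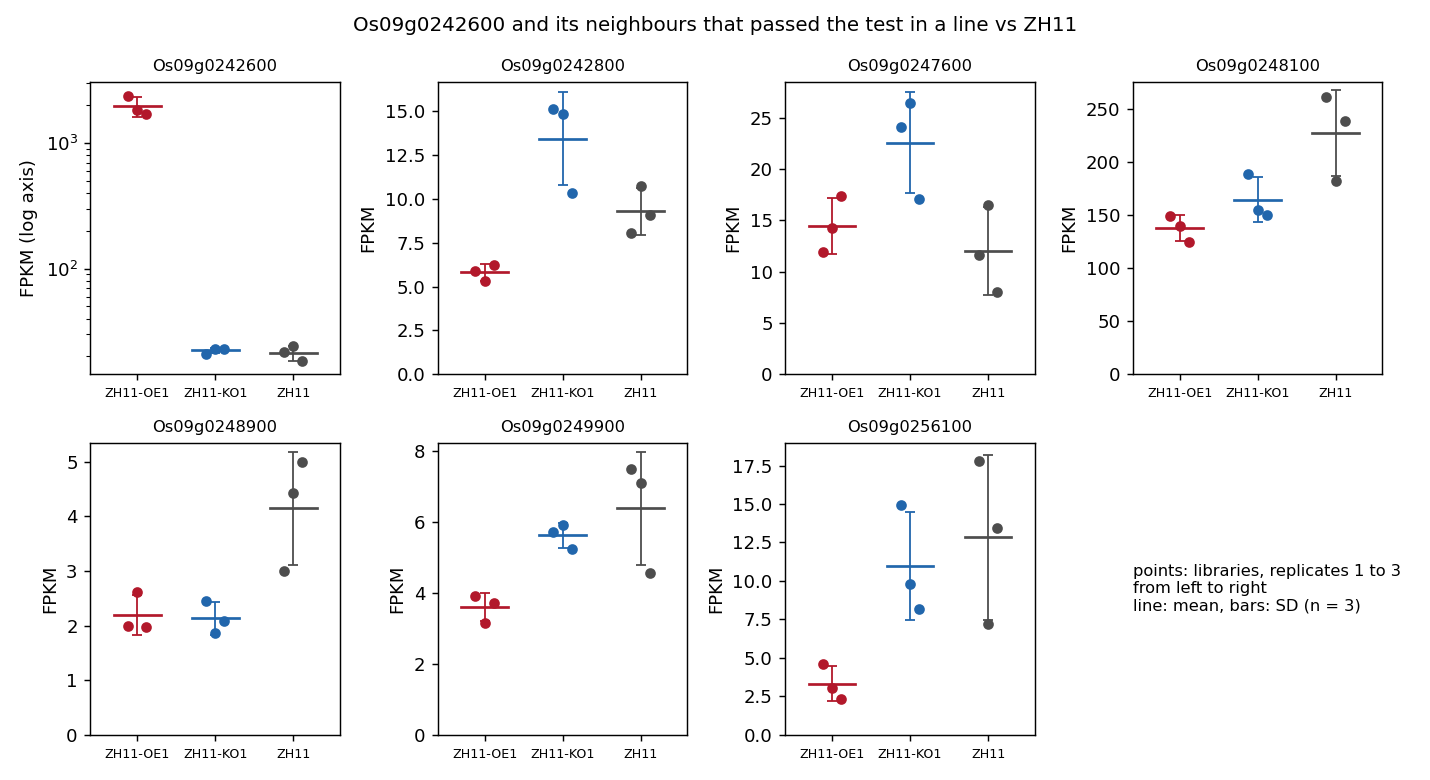
FPKM (y axis, log axis for Os09g0242600 and linear from 0 for the others) in ZH11-OE1, ZH11-KO1 and ZH11 of Os09g0242600 and the 6 neighbours that passed in a line against ZH11; points are libraries, lines are means and bars are SD (n = 3). Os09g0242800 is lowest in ZH11-OE1 and highest in ZH11-KO1, while Os09g0248900 is low in both lines.

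The lines themselves differed in more neighbours than either did from ZH11, and the same held over all genes tested. Of all genes, 23.9% passed between the lines, 13.8% in ZH11-OE1 against ZH11 and 8.6% in ZH11-KO1 against ZH11. In ZH11-OE1 against ZH11-KO1, 7 of 43 neighbours were higher in ZH11-OE1 (16.3%, beside 8.09% of all genes tested) and 6 were lower (14%, beside 15.8%). The 7 higher rows were Os09g0241100, Os09g0245500, Os09g0248200, Os09g0248300, Os09g0249700, Os09g0252700 and Os09g0252800, with log2 fold changes between 0.26 and 0.59. The 6 lower rows were Os09g0240350, Os09g0242800, Os09g0244900, Os09g0249900, Os09g0251400 and Os09g0256100, with values between -1.46 and -0.37. Os09g0242800 had the smallest adjusted p of the 13, at -1.07 ± 0.15 (SE, adjusted p = 0.00162, limma). The count of 13 was 8 without ZH11-OE1 replicate 1, 4 without ZH11-OE1 replicate 2, 7 without ZH11-OE1 replicate 3, 4 without ZH11-KO1 replicate 1 and 5 without ZH11-KO1 replicate 2. In these fits 18.7%, 10.7%, 17.9%, 13% and 12% of all genes passed, in the same order, beside 23.9% with all libraries. None of the 7 higher rows passed in either line against ZH11.

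Consecutive rows did not always move together. Os09g0248200, the row after Os09g0248100, had 90.2, 97.2 and 90.6 FPKM in ZH11-OE1, 63.0, 76.0 and 73.1 FPKM in ZH11-KO1, and 75.9, 79.1 and 82.9 FPKM in ZH11. Os09g0248300, the next one, had 65.7, 67.1 and 64.4 FPKM in ZH11-OE1, 49.2, 53.8 and 55.3 FPKM in ZH11-KO1, and 52.7, 59.3 and 59.8 FPKM in ZH11. Both were above ZH11 in every ZH11-OE1 library, where Os09g0248100 was below it, and their log2 fold changes of 0.22 and 0.20 in ZH11-OE1 against ZH11 did not pass (adjusted p = 0.117 and 0.129, limma). Os09g0252700 had 29.7, 30.9 and 29.9 FPKM in ZH11-OE1, 14.7, 19.9 and 26.1 FPKM in ZH11-KO1, and 20.7, 23.1 and 23.96 FPKM in ZH11. Its neighbour in number Os09g0252800 had 52.2, 60.8 and 51.5 FPKM in ZH11-OE1, 40.3, 38.7 and 42.2 FPKM in ZH11-KO1, and 42.9, 47.3 and 48.1 FPKM in ZH11. These were chosen for display after their values were seen. Both were highest in ZH11-OE1, with log2 fold changes against ZH11 of 0.41 (adjusted p = 0.12) and 0.24 (adjusted p = 0.093).

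**Figure D4:**
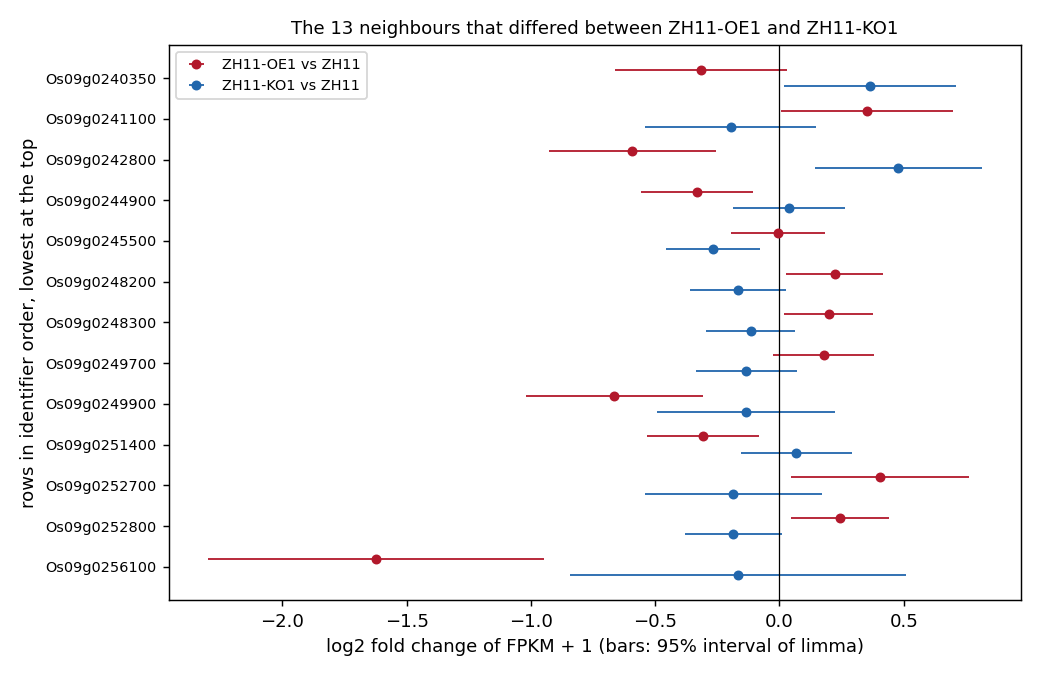
Log2 fold change of FPKM + 1 (x axis) against ZH11 in ZH11-OE1 and in ZH11-KO1 for the 13 neighbours that differed between the lines, in identifier order from the top; bars are 95% intervals of limma, and both sets share the ZH11 libraries. Os09g0256100 lies at -1.62 in ZH11-OE1 and -0.17 in ZH11-KO1, and Os09g0242800 lies on opposite sides of 0.

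The median size of the change was not larger in the tested rows nearest to Os09g0242600. The 17 nearest tested rows, 7 below and 10 above it, had a median absolute log2 fold change of 0.13 in ZH11-OE1 against ZH11, with 1 row passing, and the other 26 had 0.21, with 4 passing. In ZH11-KO1 against ZH11 these medians were 0.15, with 1 row passing, and 0.17, with 1 passing. In ZH11-OE1 against ZH11-KO1 they were 0.21, with 5 passing, and 0.24, with 8 passing. The 17 rows reached from 15 rows below to 18 rows above, so their medians cannot show a change of adjacent rows alone. Os09g0242800, the tested row directly next to Os09g0242600, had the lowest of the 17 values in ZH11-OE1, -0.59 against ZH11 and -1.07 against ZH11-KO1. The highest were 0.35 and 0.55. In ZH11-KO1 against ZH11, Os09g0242800 had 0.48, and the highest of the 17 was 0.88. Elsewhere on chromosome 9, 1132 further genes were tested, of which 4.15% were higher and 10.4% lower in ZH11-OE1 than in ZH11, and 5.65% were higher and 3.09% lower in ZH11-KO1 than in ZH11. These are descriptions of rows ordered by number, and distance in bases was not available here.

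Among the 34 neighbours with reads but a mean under 1 FPKM, 15 reached 10 reads in a library and 19 did not. Their summed reads per library were 208 to 359 in ZH11-OE1, 204 to 277 in ZH11-KO1 and 205 to 222 in ZH11. With no expression minimum, 1 of them passed in ZH11-OE1 against ZH11, Os09g0240850, 8 rows below Os09g0242600. It had 61, 89 and 101 reads in ZH11-OE1, 48, 38 and 56 in ZH11-KO1, and 32, 38 and 47 in ZH11, and its log2 fold change in ZH11-OE1 against ZH11 was 0.46 (adjusted p = 0.0426, limma). In ZH11-KO1 against ZH11 the 1 that passed was Os09g0241200 (log2 fold change 0.56, adjusted p = 0.0196), which rests on 6 to 8 reads against 2 to 3. Over the 32208 genes of that fit, 6.81% passed in ZH11-OE1 against ZH11 and 3.73% in ZH11-KO1 against ZH11, both directions together.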

How the data were processed

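The authors sequenced panicle mRNA, aligned reads with HISAT2 to IRGSP-1.0, counted with featureCounts and compared groups with DESeq2, per the labels and the study's methods. The sources used here do not give the strand setting. The deposited table holds FPKM per gene and library, and its columns were matched to samples by name. Members, lists and tests were chosen with earlier results of these data known. Since FPKM are not counts, limma 3.58.1 (R 4.3.3) was fitted to log2(FPKM + 1) of all 9 libraries with a trend, for the 21780 genes averaging 1 FPKM or more, with Benjamini-Hochberg adjustment over all of them, two-sided, threshold 0.05. A fold change on this scale understates that of low genes. P-values measure the spread between these libraries.

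FPKM steps gave whole reads for 99.997% of the 32208 genes above 0 (tolerance 0.0001 reads), and these fixed each library's size and gene lengths. Counting error limits the rows with few reads. A fit of the recovered reads with limma-voom, added after seeing the data, called 3308 genes in ZH11-OE1 against ZH11, 2152 in ZH11-KO1 against ZH11 and 6020 between the lines.

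Named rows were Os09g0242600, 5 rows on each side and every neighbour passing in a line against ZH11; rows named outside this rule were chosen after their values were seen. Reads shared with near-identical or overlapping genes cannot be told apart here.

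To see whether replicate numbers pair the samples, deviations from the group means were correlated between same-numbered libraries. The correlation was 0.234 to 0.316 in ZH11-KO1 and ZH11, -0.279 to 0.0234 in ZH11-OE1 and ZH11, and -0.0649 to 0.0147 between the lines. Differently numbered libraries gave -0.262 to -0.0218 in ZH11-KO1 and ZH11, but up to 0.274 in ZH11-OE1 and ZH11. The deviations cancel within each group, so positive same-numbered values force negative values among differently numbered pairs. The differently numbered values are therefore no separate evidence on pairing. With 3 libraries a group, these values do not settle whether ZH11-KO1 and ZH11 were paired. The main fit held no block. As the same-numbered values of ZH11-KO1 and ZH11 were above 0.1, the replicate block is given beside the ZH11-KO1 results it changes. Other pseudocounts, minimums, scalings, fits, windows and libraries left out were tried. Figures were drawn with matplotlib 3.10.9.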

Additional observations from a re-analysis of the deposited data

How the results depend on the processing

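No named difference from ZH11 that passed the test changed direction under an alternative. Of those that did not pass, that of Os09g0242600 in ZH11-KO1 changed sign without ZH11 replicate 3 (log2 fold change -0.03), and that of Os09g0256100 in ZH11-KO1 without ZH11 replicate 1 (0.10) or ZH11-KO1 replicate 3 (0.01). For ZH11-OE1 against ZH11, the 5 neighbours passing became 3 with no expression minimum, 1 at an absolute log2 fold change of at least 1, 1 in a narrower window and 2 with a replicate block in a fit of the 2 groups alone, and 2 to 6 when 1 library was left out. For ZH11-KO1 against ZH11, the 2 neighbours became 1 with no minimum, 1 at a minimum of 5 FPKM, 4 with quantile normalization, 1 with no trend, 0 in a fit of the 2 groups alone, 0 at an absolute log2 fold change of at least 1 and 0 in the narrower window, and 0 to 4 when 1 library was left out. For ZH11-OE1 against ZH11-KO1, the 13 became 2 at an absolute log2 fold change of at least 1, and 4 to 15 when 1 library was left out. The 1 neighbour passing the same way in both lines became 0 with no minimum, 0 at 5 FPKM, 0 in fits of the 2 groups alone without the block, 0 at an absolute log2 fold change of at least 1 and 2 with the replicate block, and 0 to 1 when 1 library was left out. In the fit of all libraries, the replicate block gave 6, 3 and 12 neighbours in the 3 comparisons, in the order above. Of all genes, it called 14.6%, 8.3% and 24.7%. In fits of the 2 groups compared it gave 2, 2 and 10 neighbours, and 5.87%, 12.7% and 21.9% of all genes. Without the block, fits of the 2 groups called 11.3%, 4.64% and 26.1%, and the main fit 13.8%, 8.6% and 23.9%. With 1 library left out the shares were 4.99% to 14.8%, 1.84% to 9.15% and 10.7% to 25.9%. In ZH11-KO1 against ZH11, quantile normalization called 9.42% of all genes, no trend 6.88% and a minimum of 5 FPKM 10.1%. A minimum of 5 FPKM leaves Os09g0248900, with a mean of 2.83 FPKM, untested, and the narrower window only leaves rows out. The drops at these settings in ZH11-KO1 and in both lines were therefore fixed by the settings, as was the narrower-window count in ZH11-OE1. The cause of the other shifts was not tested. A wider window gave 6 for ZH11-OE1 and 3 for ZH11-KO1, and it can only add rows. For the narrower and wider windows, the number of rows tested is not given here. Nor is the share of all genes at an absolute log2 fold change of at least 1. The counts at these settings therefore have no base and are no result about the neighbours. The fit of 2 groups with the block and the fit of recovered reads were chosen after seeing the data. With 3 libraries a group, and with under 10 reads in every library for 19 rows, small changes of low rows were not detectable.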
